A study of Mus musculus with 4 samples.

Results

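The genes of the T cell receptor complex and its first signalling steps were examined in the infarcted left ventricle of mice lacking the histone demethylase KDM5B. The 9 genes were Cd3d, Cd3e, Cd3g, Cd247, Cd8a, Cd8b1, Lck, Zap70 and Cd5, taken as the non-control array probes that carry these names. They were read by 15 of the 41174 non-control probes, and they are 9 of the 27376 gene names on the array. The samples were left ventricles of mice labelled male, 8 to 10 weeks old, taken 7 days after the left anterior descending coronary artery was tied off. On WT 2 and KO 2 the signals of sex-linked genes went against the label, as given below. KDM5B-KO mice carried a CRISPR/Cas9 deletion around the JmjC domain that shifts the reading frame, and the controls were WT littermates. There were 2 arrays a group, named here by genotype and the number in their title as WT 2, WT 3, KO 2 and KO 3. Every animal was infarcted, so the series measures genotype within injured hearts only. Nothing in the labels states whether a sample was 1 heart or a pool.

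The T cell receptor recognises peptide on MHC molecules, but its antigen-binding chains have almost no intracellular part. The signal is passed on by the CD3 chains and by CD247, the zeta chain, whose tails carry immunoreceptor tyrosine-based activation motifs. LCK, a SRC family kinase bound to the CD4 and CD8 coreceptors, phosphorylates these motifs, and ZAP70 docks on them and phosphorylates the next adaptors. CD8A and CD8B1 form the coreceptor of cytotoxic T cells, and CD5 is a surface protein of T cells that dampens the signal. T cells enter the infarcted heart and take part in scar formation, among many other leukocytes.

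Each gene was read by 60-base oligonucleotides, and 5 of these are shown because they lie in informative parts of the transcripts or because they carry results below. The probes of Cd3d and of Cd247 matched an activation motif when translated, with the codons of its 2 tyrosines in capitals. The motif was searched as a tyrosine, 2 residues and a leucine or isoleucine, with the same unit again after 6 to 8 residues. It was found in 32 of the 41174 probes (0.0777%) on the probe strand and in 28 (0.068%) on the other strand. The Cd3d probe lies at chr9:44794171-44794402 and this Cd247 probe at chr1:167786567-167787585 on the mm9 build of the files, and both spans exceed the probe's length, so both cross an exon junction. The Cd3g probe at chr9:44781716-44782300 also crosses a junction. The Zap70 probe lies at chr1:36838210-36838269, and the Cd8a probe, 1 of 3 for this gene, at chr6:71323885-71323944. All probes are written as deposited, 5′ to 3′.
Cd3d probe: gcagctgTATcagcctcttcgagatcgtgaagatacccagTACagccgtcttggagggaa
Cd247 probe with motif: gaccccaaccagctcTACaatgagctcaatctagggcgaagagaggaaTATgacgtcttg
Cd3g probe: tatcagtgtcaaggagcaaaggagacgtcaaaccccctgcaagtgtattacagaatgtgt
Zap70 probe: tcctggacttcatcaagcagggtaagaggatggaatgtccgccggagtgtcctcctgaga
Cd8a probe: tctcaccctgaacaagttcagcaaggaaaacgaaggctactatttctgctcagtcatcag

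Signals are given as the log2 processed signal relative to the 75th percentile of the same array, so a value of 0 is a bright probe. The test covered the 28305 probes for which at least 1 genotype had both arrays well above background. Between 68.2% and 72.0% of probes per array were well above background, and the 75th percentile was lowest on KO 2, at 607.6 against 876.3 to 976.1 units on the others. All arrays lay on 1 slide, with WT and KO at separate positions, so position and genotype cannot be told apart. The 2 Kdm5b probes were changed by −0.996 (SE 0.40) and −1.19 (SE 0.45) from WT to KO, neither past the test, and whether they lie within the deleted part was not determined. Xist was well above background on the number 2 arrays alone and the Y-linked Ddx3y on the number 3 arrays alone, although all 4 samples are labelled male.

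Of the CD3 chains, Cd3d showed the widest difference and Cd3e the narrowest. Cd3d, the delta chain, was at −0.41 and −0.97 on WT 2 and WT 3, at −4.57 on KO 2 and at −1.16 on KO 3. KO 2 stood far below the other arrays, while KO 3 lay just under WT 3. The group means were −0.69 ± 0.40 in WT and −2.87 ± 2.41 in KO (SD, n = 2), a difference of −2.18 (SE 1.28). Cd3g, the gamma chain, was at −2.61 and −3.14 on the WT arrays, at −4.30 on KO 2 and at −3.14 on KO 3. KO 3 and WT 3 were level, so the groups overlapped, and the difference was −0.84 (SE 0.51). Cd3e, the epsilon chain, read −3.38 and −3.57 in WT 2 and WT 3, and −3.70 and −3.75 in KO 2 and KO 3. Here all 4 arrays lay close together, KO 2 was not the lowest, and the difference was −0.25 (SE 0.21). The Cd3e probe lies at chr9:44807254-44807313, on the same stretch of chromosome 9 as the Cd3d and Cd3g probes. A second Cd3e probe was well above background on no array.

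Cd247, which encodes the zeta chain, was measured by 1 of its 4 probes. That probe, at chr1:167791855-167791914, gave −2.55 and −3.02 for the WT arrays 2 and 3, −4.03 for KO 2 and −3.15 for KO 3. Both KO arrays were below both WT arrays, with KO 3 near WT 3, and the difference was −0.80 (SE 0.42). The probe over the activation motif, annotated to another transcript record than the measured probe, behaved otherwise. It was well above background on KO 2 alone, at −4.32, and not well above background at −6.79 on WT 2, −6.11 on WT 3 and −7.19 on KO 3, so it was not tested. The remaining 2 Cd247 probes were well above background on no array.

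The CD8 coreceptor genes were among the widest differences. Cd8b1 (chr6:71287068-71287126) was bright in WT 2 (−0.57) and WT 3 (−0.18), at −3.86 in KO 2 and at −0.70 in KO 3. KO 3 was slightly below WT 2, and KO 2 was 9.78-fold below WT 2. The Cd8b1 difference was −1.90 (SE 1.18). The brightest Cd8a probe (chr6:71327330-71327389) was at −1.94 and −1.71 on WT 2 and WT 3 and at −2.47 on KO 3. On KO 2 it was not well above background, at −5.87, which places that array at least 11.1-fold below WT 2. The fitted difference of this probe was −2.35 (SE 1.26), and it includes the dim value of KO 2. The other tested Cd8a probes ran the same way, with a difference of −1.59 each (SE 0.86 and 0.54). The one whose sequence is printed above was not well above background on either KO array, and its signal was at least 1.17-fold lower in KO. It was also the only member probe with an unadjusted limma p under 0.05, a p that rests on those dim KO values. Each of the tested Cd8a probes, the brightest included, entered the test through its WT arrays alone, which favours a lower KO. At the 2 Cd8a probes that were well above background on KO 3, that array was below both WT arrays, and KO 3 minus WT 3 was −0.76 and −0.55.

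Among the kinases and the inhibitory receptor the order of the arrays was mostly the same. Lck (chr4:129225846-129225905) gave −1.31 in WT 2, −1.67 in WT 3, −1.82 in KO 3 and −4.18 in KO 2, a difference of −1.51 (SE 0.89). KO 2 was 7.34-fold below WT 2, and KO 3 was 1.11-fold below WT 3. Zap70, the kinase that docks on the activation motifs, was at −2.72 and −2.94 on the WT arrays, at −4.60 on KO 2 and at −3.04 on KO 3. KO 3 again sat just under WT 3, and the Zap70 difference was −0.99 (SE 0.61). Cd5 (chr19:10792701-10792760) was at −0.51 in WT 2, −1.28 in KO 3, −1.55 in WT 3 and −2.74 in KO 2. KO 3 lay between the WT arrays, which were themselves 1.04 apart, and the Cd5 difference was −0.98 (SE 0.69).

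**Figure D1:**
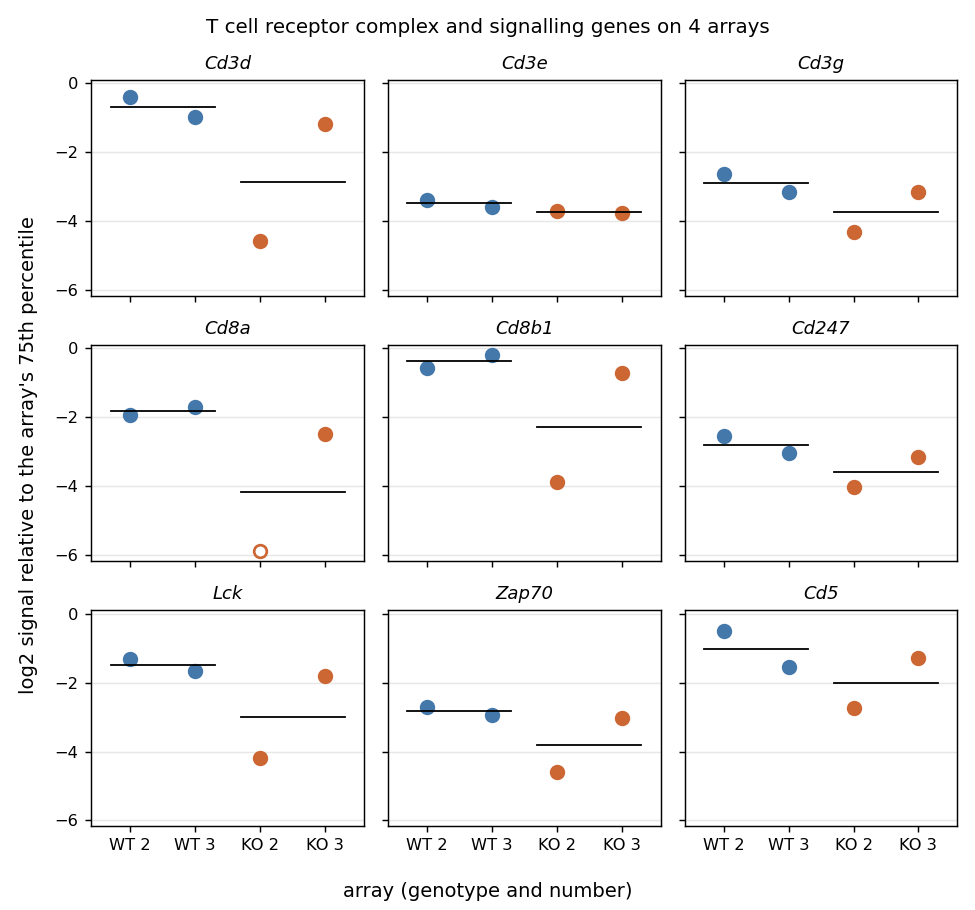
Log2 signal relative to the array's 75th percentile (y axis) on each of the 4 arrays (x axis), 1 panel a gene, with the probe used for the gene. Blue points are WT, orange points KO, an open point is not well above background and black lines are group means (n = 2). KO 2 is the lowest array in 8 of 9 genes and KO 3 lies close to the WT arrays, while Cd3e is nearly level across all 4.

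No member passed the comparison of genotypes. With the threshold set at a 2-fold change and at 0.05 for the adjusted p, limma called 0 of the 28305 tested probes in either direction (0%). Of the 11 tested member probes it called 0, each with adjusted p = 0.9999. At an unadjusted p under 0.05 there were 410 probes in all. Lower in KO at that level were 216 probes (0.763%), 1 of them a member probe, the Cd8a probe that was dim on both KO arrays. An exact permutation of 2 against 2 arrays has 0.333 as its smallest two-sided p, so single genes cannot be settled by it. In size, 4 of 9 genes were more than 2-fold lower in KO, namely Cd3d, Cd8a, Cd8b1 and Lck, against 2.35% of all tested probes. For 7 of 9 genes the higher KO array was still under the lower WT array, against 10.9% of tested probes. Cd8a, which is in both counts, entered the test through its WT arrays alone, which favours a lower KO. The median difference of the 9 genes was −0.99, with a range from −2.35 to −0.25, and the median of all tested probes was 0.02. In bulk tissue, fewer T cells and less RNA of these genes per T cell cannot be told apart.

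The difference lay mainly between KO 2 and the other arrays. Within number 2, KO 2 was below WT 2 for all 9 genes, by more than 2-fold for 8 of them, where 8.84% of tested probes were. The median of KO 2 minus WT 2 was −2.24, and the genes ran from −0.32 for Cd3e to −4.16 for Cd3d, which was 17.9-fold. Of all tested probes, 0.138% were lower than Cd3d in this pair and 27.4% were lower than Cd3e. Within number 3, 0 of 9 genes were more than 2-fold lower, where 1.78% of tested probes were. The median of KO 3 minus WT 3 was −0.15, and the genes ran from −0.76 for Cd8a to 0.27 for Cd5. KO 2 was the lowest of the 4 arrays for 8 of 9 genes, against 41.4% of tested probes. The median SD between the 2 KO arrays was 1.10 for these genes and between the WT arrays 0.28, where the medians over all tested probes were 0.39 and 0.16. The summed linear signal of the 9 probes, relative to the 75th percentile, was 3.38 and 2.81 on the WT arrays 2 and 3, 2.36 on KO 3 and 0.563 on KO 2.

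**Figure D2:**
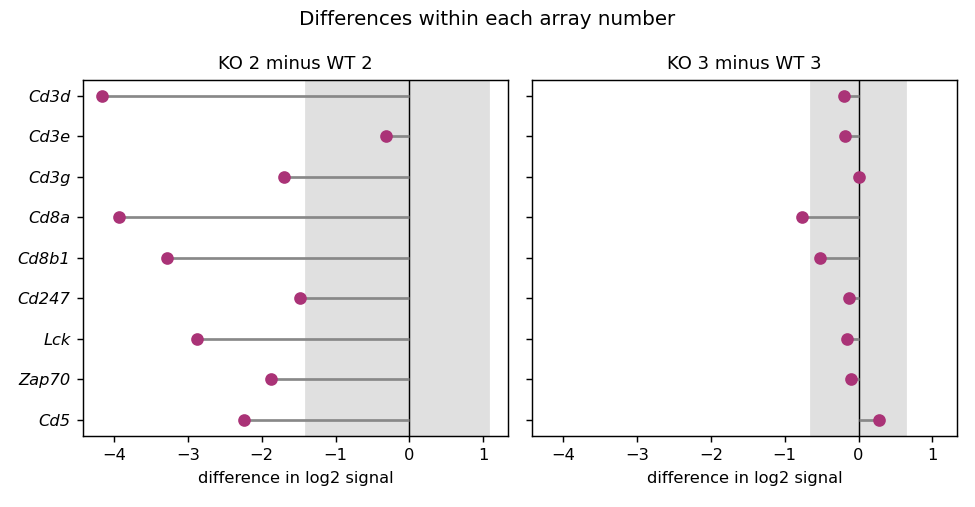
Difference in log2 signal between KO and WT arrays of the same number for each gene (x axis, number 2 left and number 3 right). Points are single differences between 2 arrays with no error, and the grey band runs from the 5th to the 95th percentile of all 28305 tested probes. In number 2, 8 genes lie below the band, and in number 3 Cd8a alone does.

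Left without KO 2, the remaining difference was small. KO 3 was below the mean of the WT arrays for all 9 genes, where 47.5% of tested probes were, with a median of −0.32 and a range from −0.64 for Cd8a to −0.21 for Zap70. None of the 9 was more than 2-fold lower, where 3.46% of tested probes were, and KO 3 was below both WT arrays for 7 of 9, where 34.3% were. Left without KO 3, the median was −1.77, with 8 of 9 genes more than 2-fold lower, where 10.4% of tested probes were. The lowest adjusted p of a member was then 0.128 by limma, with the lone KO array assumed to vary like the WT arrays. Left without WT 3, the median was −1.50 and 8 of 9 genes were more than 2-fold lower, where 2.75% of tested probes were. Left without WT 2 it was −0.88 with 4 of 9, where 3.59% were.

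Further genes used by T cells, not all of them by T cells alone, were followed in 5 lists, and limma called 0 probes in all of them. Many of these genes were not well above background on KO 2, where their differences are not exact. Those of them that were tested entered through their WT arrays alone, which favours a lower KO. Each count is therefore also given with dim values set at the array's floor, the lowest signal among its probes well above background. For the antigen-binding chains, 12 gene names of the receptor loci were on the array, but 6 were well above background on no array and 3 were tested. Trav3n-3, an alpha chain variable segment, was at −2.43 and −2.71 on the WT arrays, −4.85 on KO 2 and −2.73 on KO 3. Trgv2, a gamma chain variable segment, differed by −1.69 (SE 0.83) as measured and by −1.13 with KO 2 at the floor. Its KO 2 value was not well above background. Trav14d-3-dv8, the other tested name, was nearly level, with a difference of −0.08 (SE 0.39) and overlapping groups. More than 2-fold lower were 2 of the 3, also with dim values at the floor, where 2.35% of tested probes were. Tcra was well above background on WT 3 (−5.41) and KO 2 (−3.11) alone, so it was not tested. Of the 15 surface receptor genes 11 were tested, with a median of −1.21. As measured 6 were more than 2-fold lower, where 2.35% of tested probes were, and 0 were more than 2-fold higher. With the 4 genes that were dim on KO 2 at the floor, the median was −0.81 and 3 were more than 2-fold lower. Cd96 differed by −2.27 (SE 1.20), with KO 2 not well above background, and by −1.18 with KO 2 at the floor. Il2rb, the interleukin 2 receptor beta chain, differed by −2.06 (SE 0.84). Il2ra, its alpha chain, was not well above background on either KO array and was at least 1.62-fold lower there. The helper cell coreceptor Cd4 did not share this order. Its brighter probe was at −4.66, −4.69, −4.48 and −4.56 on WT 2, WT 3, KO 2 and KO 3. Its second probe was well above background on the KO arrays alone and was at least 1.67-fold higher there, with adjusted p = 0.9999.

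The genes for signalling below the receptor had a median nearer to 0 than the members. Of 30 signalling genes 28 were tested, with a median of −0.38. More than 2-fold lower were 4, where 2.35% of tested probes were, and 0 were more than 2-fold higher. With dim values at the floor these counts were the same. The TEC family kinase gene Txk differed by −2.27 (SE 1.43), with KO 2 not well above background, and by −1.23 with KO 2 at the floor. Nfatc2, a calcium-regulated transcription factor, differed by −0.51 (SE 0.29) at its brightest probe. Its other tested probes gave 0.31 (SE 0.35) and −0.34 (SE 0.73), with overlapping groups. Many genes of this list, such as Fyb, Lcp2, Ptprc and Was, also serve other leukocytes. Of 9 transcription factor genes 7 were tested, with a median of −0.97. As measured 3 were more than 2-fold lower, where 2.35% of tested probes were. With the 3 genes that were dim on KO 2 at the floor, the median was −0.44 and Tbx21 alone was more than 2-fold lower. Tbx21, the T-bet factor of type 1 and cytotoxic lymphocytes, was at −2.37 and −2.53 on the WT arrays and at −3.70 and −3.33 on the KO arrays. Its difference of −1.06 (SE 0.25) was therefore carried by both KO arrays. Gata3, the factor of type 2 helper cells, differed by −0.97 (SE 0.53) as measured and by −0.72 with KO 2 at the floor. Its KO 2 value was not well above background, and KO 3 was level with WT 3.

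The cytotoxic effector genes had the lowest median of the 5 lists, and which cells gave their signal was not tested. Of 9 genes 8 were tested, with a median of −1.92. All 8 had both KO arrays below both WT arrays, where 10.9% of tested probes did. As measured all 8 were more than 2-fold lower in KO, where 2.35% of tested probes were. The 5 genes that were dim on KO 2 entered the test through their WT arrays alone, which favours a lower KO. With the 5 genes that were dim on KO 2 at the floor, the median was −1.84 and 7 were more than 2-fold lower, all but Fasl. Gzmb, which encodes the protease granzyme B, was at −2.39 and −2.35 on the WT arrays and at −3.57 on KO 3, and it was not well above background on KO 2. The Gzmb difference was −2.32 (SE 0.84) as measured and −2.12 with KO 2 at the floor. Ifng, which encodes interferon gamma, differed by −2.55 (SE 1.25) as measured and by −1.60 with KO 2 at the floor. Its KO 2 value was not well above background, and WT 3, at −4.44, and KO 3, at −4.62, were close. Nkg7, a cytotoxic granule protein, was at 0.53 and 0.49 on the WT arrays, −2.87 on KO 2 and −0.20 on KO 3, a difference of −2.05 (SE 0.996). Within number 3 the median of the list was −0.66. There 2 of 8 genes, Gzmb and the chemokine gene Xcl1, were more than 2-fold lower, where 1.78% of tested probes were.

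**Figure D3:**
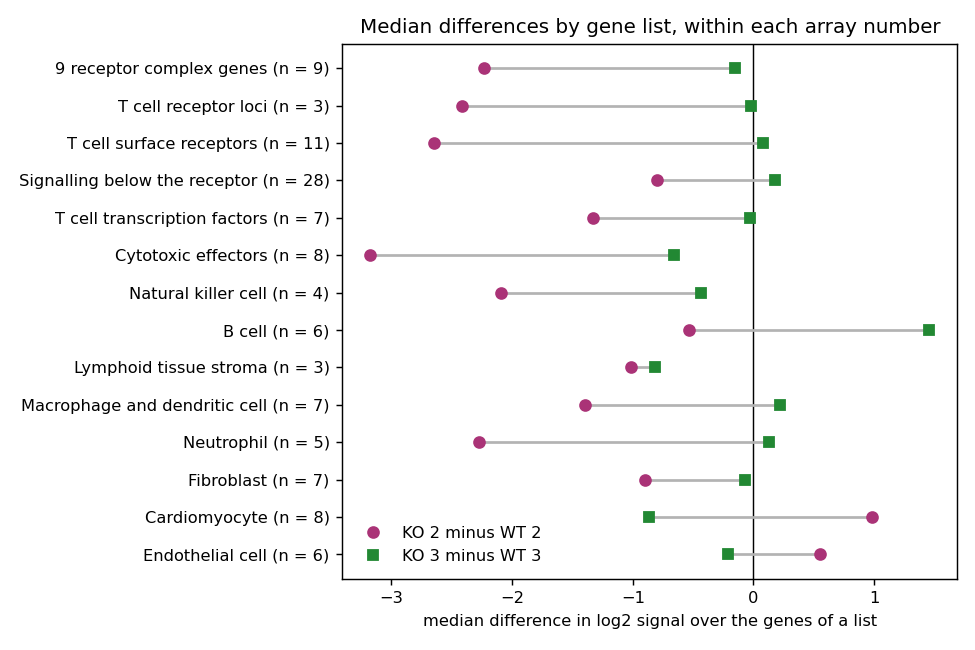
Median difference in log2 signal over the tested genes of each list (x axis), for KO 2 minus WT 2 (circles) and KO 3 minus WT 3 (squares), with n the number of genes tested and dim values as measured. In number 2 lists of other leukocytes lie below 0 together with the 9 genes and the 5 lists, and cardiomyocyte genes lie above 0. In number 3 the B cell list lies highest and the cardiomyocyte list lowest.

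Markers of other cells moved with the same array. The neutrophil list, 5 of 6 genes tested, had a median of −2.28 in number 2 and 0.13 in number 3, and its summed signal was 26.3 and 33.2 on the WT arrays, 4.90 on KO 2 and 33.8 on KO 3. The macrophage and dendritic cell list, 7 of 7 genes, had summed signals of 38.0, 54.8, 15.6 and 67.5 in the same order. The natural killer cell list, 4 of 5 genes tested, had summed signals of 0.916, 0.791, 0.176 and 0.523. Klrd1 differed by −2.11 (SE 0.95), Klrb1c by −0.54 (SE 0.21) and Klre1 by 0.34 (SE 0.27). Klrc1 differed by −2.30 (SE 1.34), with KO 2 not well above background, and by −1.23 with KO 2 at the floor. The fibroblast list, 7 of 7 genes, had sums of 852 and 743 on the WT arrays, 553 on KO 2 and 768 on KO 3. The cardiomyocyte list, 8 of 8 genes, had sums of 1143 and 631 on the WT arrays, 2233 on KO 2 and 440 on KO 3. KO 2 thus held the lowest leukocyte signals and the highest cardiomyocyte signal of the 4 samples, and KO 3 the lowest cardiomyocyte signal. The part of these in the T cell receptor result was not tested. Of the immature thymocyte markers, Rag1, Rag2 and Ptcra were well above background on no array, and Dntt differed by 0.05 (SE 0.23).

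The genes with the most similar 4-array profile were then named. Centred on each gene's own mean, the average profile was 0.81 in WT 2, 0.50 in WT 3, 0.31 in KO 3 and −1.62 in KO 2. Likeness was measured as the root mean square distance over the 4 arrays among 23490 candidate probes of named genes, well above background on all of them. The closest genes were H2-Ab1 (distance 0.069), a beta chain of MHC class II, Zfp185 (0.077), Trav3n-3 (0.084), Col3a1 at a second probe (0.091) and Clec7a (0.108), the myeloid beta-glucan receptor. The brightest Col3a1 probe was nearly level, with a difference of −0.11 (SE 0.22) from WT to KO against −1.41 (SE 0.82) at the second probe. Among the members themselves Lck lay closest to the average (0.184), then Zap70 (0.210), and Cd3e lay farthest (0.878). Of the 23490 candidates 8021 lay within the distance of Cd3e, the widest of the members. The other members lay at 0.184 to 0.759, and candidates within those distances were not counted.

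**Figure D4:**
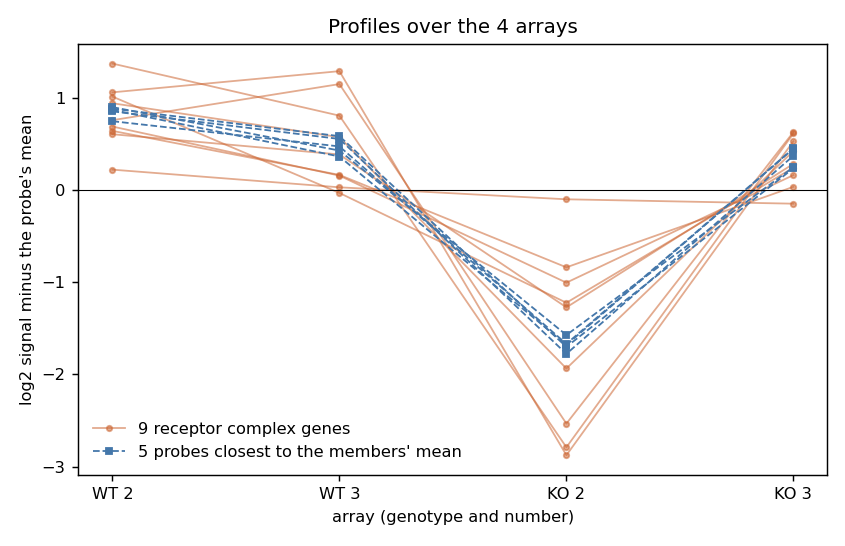
Log2 signal minus the probe's mean over the 4 arrays (y axis) on each array (x axis), for the 9 genes (orange lines) and the 5 genes with the closest profile (blue dashed lines). Nearly all lines have their minimum on KO 2 and return on KO 3, and the flat orange line is Cd3e.

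Promoter windows are shown because 8 of the 9 genes shared their lowest array. RefSeq sequence on GRCm38.p6, a build other than that of the probes, covered 8 genes with 11 start sites, with no entry for Cd8b1. In the 250 bases upstream, AGGAAG, a core bound by ETS factors, was searched on both strands, and so was TGTGGT, a core bound by RUNX factors. AGGAAG was found in 8 of 11 windows and in 29.5% of all 32851 windows. These 8 windows came from 6 of 8 genes, some of which have several windows. TGTGGT was found in 2 of 11 windows and in 14% of all. Whether the cores go with the shared lowest array was not tested. The windows of Cd8a and Cd3g, both lowest on KO 2, held neither core. At least 1 window each of Cd3d, Cd247, Lck, Zap70 and Cd5, also lowest on KO 2, held AGGAAG. That of Cd3e, nearly level over the arrays, held AGGAAG as well. A match describes the letters only, and no binding was measured. The windows of Cd3d (chr9:44981536-44981785, plus strand) and of an upstream Lck start site (chr4:129573642-129573891, minus strand) are printed in the direction of transcription, with either core in capitals on either strand. The Cd3d window holds 1 AGGAAG core, on the opposite strand, while the Lck window holds both motifs.
Cd3d upstream: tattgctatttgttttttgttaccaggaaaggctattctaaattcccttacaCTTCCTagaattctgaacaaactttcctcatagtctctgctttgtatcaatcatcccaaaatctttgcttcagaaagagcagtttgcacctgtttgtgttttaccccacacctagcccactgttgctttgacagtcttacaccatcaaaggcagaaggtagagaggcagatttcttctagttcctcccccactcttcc
Lck upstream: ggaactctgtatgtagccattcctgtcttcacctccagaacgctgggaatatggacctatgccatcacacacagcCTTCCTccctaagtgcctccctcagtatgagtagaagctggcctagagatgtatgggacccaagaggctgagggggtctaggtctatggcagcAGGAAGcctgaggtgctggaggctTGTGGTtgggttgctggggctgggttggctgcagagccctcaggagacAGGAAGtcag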

How the data were processed

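RNA of 4 left ventricle samples was labelled with Cy3 and hybridized to Agilent Whole Mouse Genome arrays. The authors deposited scanner intensity values (Feature Extraction 10.7.3.1 per the file headers, grid on mm9), with background already subtracted. The authors also deposited log2 values from GeneSpring, whose normalization is not given in the sources used here. They matched quantile-normalized log2 processed signal to within 0.01 for about 99.9% of the probes of each array.

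Control spots and outlier-flagged spots (92 to 116 an array) were left out, spots of a probe were averaged, and log2 processed signal was shifted by each array's 75th percentile. The genotypes were compared over 28305 probes with limma 3.58.1 (R 4.3.3) and Benjamini-Hochberg adjustment. A gene is read by its brightest tested probe. Bounds ("at least") set a dim array at the lowest signal among its probes well above background, or at the probe's own signal where that was higher. The p-values measure only the spread between these samples. The number of arrays limits the precision.

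All members were named. For each list the genes past the threshold were named, or up to 3 tested genes with the largest differences among those with groups that do not overlap. A gene that this rule names is not reported here. The 5 genes closest in profile and Kdm5b, Xist and Ddx3y were also named. Cd4, Xcl1, Fasl, Trav14d-3-dv8, Tcra and the natural killer and immature thymocyte markers were named after their values were seen. So were the examples of shared leukocyte genes and those under other observations. The members and lists were chosen with earlier results of these data known. The fit was tested on simulated data. Alternatives were background correction by normexp, quantile and median scaling, the authors' values, other filters, a replicate block, array weights, trended variance, the methods' t-test and each array left out.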

Additional observations from a re-analysis of the deposited data

How the results depend on the processing

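Limma called 0 member probes and 0 probes of the 5 lists under every alternative run. The methods' t-test also called 0 member probes, with and without adjustment, and without adjustment it called 1 probe of the lists, Tbx21. The single member genes kept their direction in 106 values under the alternatives, and 1 value reversed. This was Cd3e with normexp background correction, at 0.16, where the median of all tested probes was 0.13, and the cause was not tested. Not all of the 106 values were separate checks. The other filters and the replicate block cannot change a gene's difference, so their values repeat the main ones. Averaging the tested probes of a gene changed Cd8a alone. With normexp 2 members (Cd3d and Cd8b1) in place of 4 were more than 2-fold lower, and Cd247 was at −0.15, Cd3g at −0.22, Zap70 at −0.24, Lck at −0.84 and Cd8a at −0.99. The median over the members was −0.68 with normexp, −0.95 with both the authors' values and quantile normalization, −0.96 with a shift by the median, and −0.98 over the 8 genes with a probe well above background on all 4 arrays, which leaves out Cd8a. With 1 array left out it ran from −1.77 (without KO 3) to −0.32 (without KO 2). The number of members more than 2-fold lower in KO ran from 0 (without KO 2) to 8 (without KO 3, and without WT 3), and the number with KO below WT on every array from 7 to 9, where 15.7% to 44.7% of all tested probes were. With dim values at the floor, 4 members were more than 2-fold lower. These counts and that with normexp were added after the data were seen. With array number as a replicate block the median was −0.99, with 0 member probes called, and 602 of all probes were at an unadjusted p under 0.05 against 410 without it. WT 2 minus WT 3 and KO 2 minus KO 3 correlated at 0.569 over 28305 probes, but the labels give no shared litter or day, while arrays of the same number also shared the Xist and Ddx3y pattern. The source of what they share is not given in the labels, so the block was not used for the main values. Probes near background, such as Cd8a on KO 2, give bounds in place of levels.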

Other observations

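B cell genes stood apart on KO 3. Ms4a1, which encodes the B cell antigen CD20, was at −4.26 in KO 2, −2.78 in WT 2, −1.84 in WT 3 and 0.83 in KO 3. Cxcl13, the chemokine that draws B cells into follicles, was at −4.35 and −4.46 on the WT arrays and at 1.31 on KO 3, and it was not well above background on KO 2. The other tested genes of the lymphoid tissue stroma list ran the other way, with KO 3 minus WT 3 at −1.81 for Ccl21a and −0.81 for Ccl19. The B cell list, 6 of 8 genes tested, had a median of 1.46 for KO 3 minus WT 3. The 95th percentile of that difference over all tested probes was 0.65. Of these 6 genes, 4 were more than 2-fold higher on KO 3 than on WT 3. The differences rest on a single array and have no replicate. For the 9 T cell receptor complex genes the median of KO 3 minus WT 3 was −0.15, with Cd5 at 0.27 the highest.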
